A study of Mus musculus with 11 samples.

Results

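S100 genes other than the neutrophil pair S100a8 and S100a9 were followed through paracetamol (APAP) injury of the mouse liver. The set was S100a1, S100a4, S100a6, S100a10, S100a11 and S100a13, chosen by gene symbol, 6 of the 31053 genes in the files and 6 of the 17 S100 gene symbols there. All 6 passed the filter on low counts. RNA was captured on Visium arrays, which place a liver section over barcoded spots so that each transcript keeps a position. There were 11 sections, each 1 library. The 3 sections at 0 h (replicates 2, 3 and 4) were labelled uninjured, and the injured sections were taken 24 h (A and B), 36 h (A and B) and 48 h (A to D) along an APAP time course. No genotype, strain, sex, age or dose is given in the labels. The study's methods describe fasted mice injected intraperitoneally with APAP and a single liver behind each time. The p-values below therefore measure how sections vary, and mouse and time cannot be told apart.

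Between 1490 and 3466 spots per section passed the study's filter, with 31292663 to 67045372 unique molecular identifiers (UMIs, 1 for each captured transcript) per section. Liver identity was checked on 7 hepatocyte markers (Alb, Ttr, Trf, Hp, Hnf4a, Apoa1 and Cyp2e1), which together made 96565 to 119770 unscaled CPM (counts for each 1000000 UMIs captured, with no other scaling) with none at 0 in any section. Markers of other cells moved with time, and the members' values below stand beside them. The 4 myofibroblast markers (Acta2, Col1a1, Col1a2 and Col3a1) summed to 29.7 to 36.0 unscaled CPM at 0 h and 552 to 1382 at 48 h. The 4 mononuclear phagocyte markers (Lyz2, Csf1r, Cd68 and Cd5l) summed to 324 to 340 at 0 h and 824 to 1547 at 48 h. The 4 markers of the cholangiocyte list (Epcam, Cdh1, Krt8 and Krt19) summed to 186 to 230 at 0 h, 988 and 1121 at 24 h, and 370 to 1177 at 48 h. Whether hepatocytes carried part of this sum was not tested. None of these markers was at 0 in any section. In a section, more (or fewer) cells of a type and more (or less) RNA per cell cannot be told apart.

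S100 proteins are small EF-hand proteins that bind calcium, mostly as dimers, and then expose a face that grips a partner protein. S100a10 is the exception, since its calcium-binding loops have lost that function and it is held ready to bind, forming a complex with annexin A2 at the plasma membrane where it also docks plasminogen. S100a11 pairs with annexin A1 and annexin A2. S100a4 binds non-muscle myosin heavy chains and is known from migrating fibroblasts and macrophages, and S100a6 binds the calcyclin-binding protein encoded by Cacybp. S100a1 is best known from muscle, where it acts on calcium pumps and channels, and S100a13 takes part in the release of fibroblast growth factor 1 and interleukin 1 alpha, which leave cells without a signal peptide.

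All 6 genes lie on mouse chromosome 3 (GRCm38, GENCODE vM21), in 2 groups 2896306 bases apart. S100a1 (ENSMUSG00000044080, chr3:90511034-90514392, minus strand) and S100a13 (ENSMUSG00000042312, chr3:90514435-90524581, plus strand) are placed head to head, with 42 bases between their annotated starts. S100a4 (ENSMUSG00000001020, chr3:90603771-90606045) and S100a6 (ENSMUSG00000001025, chr3:90612882-90624181) follow on the plus strand. S100a11 (ENSMUSG00000027907, chr3:93520488-93526287) and S100a10 (ENSMUSG00000041959, chr3:93555080-93564643) form the other group, also on the plus strand. The gene model Gm42674 overlaps 2115 bases of S100a4 on the same strand and held 0 UMIs in every section.

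The stretch between S100a1 and S100a13 (chr3:90514393-90514434, plus strand) is shown because those 2 members were lower after injury. The 250 bases before the RefSeq start are shown for the 3 members that rose, S100a4 (chr3:90603520-90603769), S100a6 (chr3:90612644-90612893) and S100a11 (chr3:93520246-93520495), all on the plus strand and from RefSeq on GRCm38.p6. The RefSeq promoter table held 5 of the 6 members, and S100a10 was not among them. Capitals mark 3 motifs searched on both strands: TGANTCA (the AP-1 site), GGGCGG (the GC box) and TATAAA (the TATA box).
S100a1/S100a13: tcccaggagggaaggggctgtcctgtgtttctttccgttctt
S100a4: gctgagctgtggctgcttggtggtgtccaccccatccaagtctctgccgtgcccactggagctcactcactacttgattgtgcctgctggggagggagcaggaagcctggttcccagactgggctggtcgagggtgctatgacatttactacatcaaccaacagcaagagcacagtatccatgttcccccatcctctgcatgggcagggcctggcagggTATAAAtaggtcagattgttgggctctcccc
S100a6: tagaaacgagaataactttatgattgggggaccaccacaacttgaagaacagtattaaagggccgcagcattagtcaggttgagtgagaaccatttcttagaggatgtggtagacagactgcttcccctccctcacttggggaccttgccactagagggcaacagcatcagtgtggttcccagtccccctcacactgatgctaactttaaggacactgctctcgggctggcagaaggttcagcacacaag
S100a11: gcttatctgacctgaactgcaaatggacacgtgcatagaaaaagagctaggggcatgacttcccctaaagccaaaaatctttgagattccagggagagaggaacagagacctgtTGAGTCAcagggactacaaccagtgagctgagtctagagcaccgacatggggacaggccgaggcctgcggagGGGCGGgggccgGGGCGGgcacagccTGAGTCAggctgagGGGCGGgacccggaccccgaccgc
S100a11 held TGANTCA at 136 and 38 bases before its start and GGGCGG at 64, 52 and 24 bases. S100a4 held TATAAA at 31 bases before its start. No letters of the 3 motifs matched in the S100a6 window or between S100a1 and S100a13. Among all 32851 promoters of the table cut to the same length, 6.75% held TGANTCA, 32.7% GGGCGG and 12.4% TATAAA, and a match is given as a description only.

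S100a4, S100a6 and S100a11 rose at all 3 injured times, S100a1 was lower at all 3, S100a13 was lower at 24 h and 48 h, and S100a10 did not pass the test at any. At 24 h, 3 members were higher and 2 lower, against 23.1% of all genes tested higher and 18.6% lower. At 36 h, 3 were higher and 1 lower (16.8% and 12.4% of all genes). At 48 h, 3 were higher and 2 lower (23.3% and 20.9% of all genes). The median log2 fold change of the 6 members at 48 h was 1.75, beside 0.01 over all 14821 genes tested. These counts come from edgeR's quasi-likelihood test on UMIs summed per section, with p adjusted over all genes by Benjamini-Hochberg and called below 0.05. The 3 comparisons share the same 0 h sections.

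**Figure D1:**
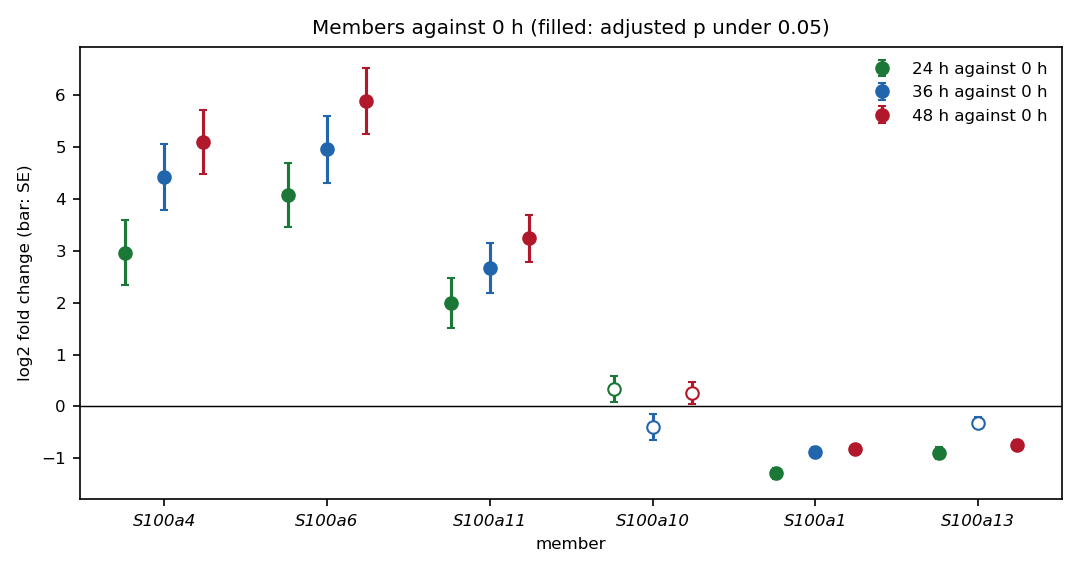
Log2 fold change of each member at 24 h, 36 h and 48 h against 0 h (points, with standard error bars), filled where the adjusted p was below 0.05. S100a4, S100a6 and S100a11 lie between 1.99 and 5.88 at the 3 times, S100a1 between -1.29 and -0.82, and every S100a10 point is open.

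S100a6, which encodes calcyclin, showed the largest change of the 6. Its level was 5.11, 5.96 and 7.37 CPM (here with libraries scaled by the trimmed mean of M values, TMM) in the 0 h sections. It reached 67.3 and 139 at 24 h, 71.8 and 307 at 36 h, and 434, 392, 458 and 167 in replicates A to D of the 48 h group. Every injured section lay above every 0 h section, with 48 h D lowest of the 48 h sections and 36 h A close to 24 h A. The mean was 6.15 ± 1.14 CPM (SD, n = 3) at 0 h and 363 ± 133 (SD, n = 4) at 48 h. On the log2 scale the difference from 0 h was 4.07 ± 0.62 (SE) at 24 h, 4.95 ± 0.64 at 36 h and 5.88 ± 0.64 at 48 h (edgeR adjusted p = 0.000822, 0.00103 and 0.000125). That placed S100a6 at the 99.5th percentile of all genes at 48 h.

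S100a4, the metastasin of motile fibroblasts and macrophages, was low before injury, with 217 UMIs over the 3 sections at 0 h. It stood at 1.17, 1.47 and 2.37 CPM at 0 h, 9.36 and 16.3 at 24 h, 13.7 and 56.9 at 36 h, and 57.0, 41.3, 89.3 and 37.0 at 48 h. Injured and uninjured sections did not overlap, and 36 h B lay within the range of the 48 h sections while 36 h A lay between the 24 h sections. The log2 difference from 0 h was 2.96 ± 0.62 (SE) at 24 h, 4.42 ± 0.63 at 36 h and 5.09 ± 0.61 at 48 h (edgeR adjusted p = 0.0044, 0.00154 and 0.000204).

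S100a11, the annexin A1 and A2 partner, had smaller log2 differences. Its level was 10.4, 12.5 and 13.5 CPM at 0 h, 43.3 and 52.9 at 24 h, 31.0 and 122 at 36 h, and 103, 102, 172 and 79.8 at 48 h. Again no injured section fell within the 0 h range, and 48 h C was the highest section for both S100a11 and S100a4. The log2 difference was 1.99 ± 0.48 (SE) at 24 h, 2.66 ± 0.48 at 36 h and 3.24 ± 0.45 at 48 h (edgeR adjusted p = 0.00822, 0.00397 and 0.000432). The 24 h call was lost without 24 h B (log2 1.83, adjusted p = 0.0503). Of all genes, 15.7% also had all injured sections above all 0 h sections, as these 3 members did.

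The 36 h sections stood far apart for these 3 genes, and 36 h B was the higher in each. Markers moved the same way between them: myofibroblast markers summed to 136 unscaled CPM in the first and 403 in the second (A and B), mononuclear phagocyte markers to 495 and 654, and neutrophil markers (S100a8, S100a9, Retnlg, Cxcr2 and Csf3r) to 28.0 and 70.0. The part of those cells in the members' levels was not tested. Between successive injured times none of the 3 passed the test. S100a6 differed by 0.88 ± 0.64 (SE, log2) from 24 h to 36 h and by 0.94 ± 0.58 from 36 h to 48 h. For S100a4 these differences were 1.46 ± 0.64 and 0.67 ± 0.55, and for S100a11 0.67 ± 0.52 and 0.58 ± 0.46. The edgeR adjusted p ran from 0.14 to 0.529 over the 3 genes. Leaving out 36 h A called S100a4 (2.15, adjusted p = 0.0268) and S100a11 (1.34, 0.0308) higher at 36 h than at 24 h, and leaving out 36 h B called S100a11 higher at 48 h than at 36 h (1.88, adjusted p = 0.0323).

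**Figure D2:**
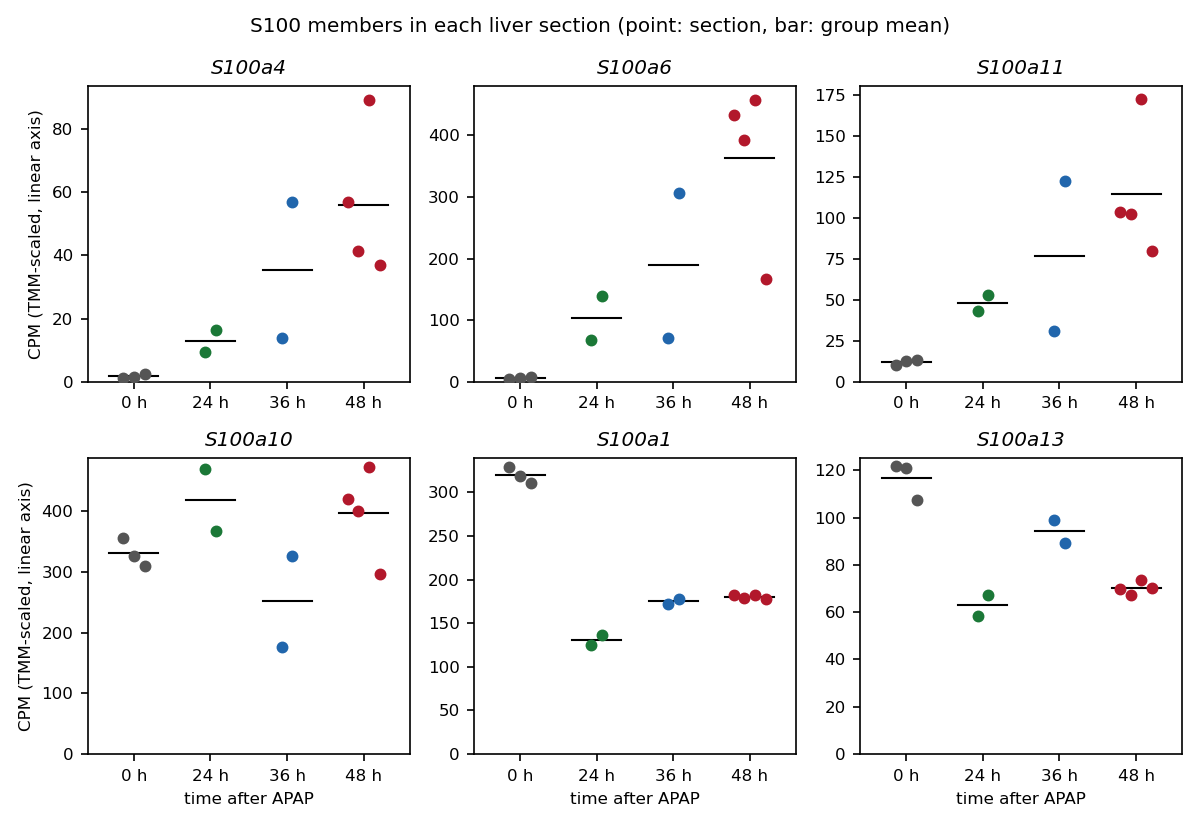
CPM of each member in each of the 11 sections (points, linear axes from 0) by time after APAP, with the group mean as a bar. S100a4, S100a6 and S100a11 have all 8 injured sections above the 0 h sections, S100a1 has all 8 below, and the S100a10 groups overlap.

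S100a10, which encodes p11, was not called against 0 h at any time, while Anxa2, which encodes its partner, was called higher at each. S100a10 stood at 356, 326 and 309 CPM at 0 h, 469 and 368 at 24 h and 177 and 325 at 36 h, with 48 h sections at 420, 400, 472 and 296. The groups overlapped, with 48 h D and 36 h A below every 0 h section and both 24 h sections above them. The log2 difference was 0.34 ± 0.25 (SE) at 24 h, -0.40 ± 0.25 at 36 h and 0.26 ± 0.21 at 48 h (edgeR adjusted p = 0.295, 0.256 and 0.331). Without 36 h B it was called lower at 36 h (-0.90, adjusted p = 0.0297). This reading depends on the scaling. When libraries were scaled by total UMIs, which moved the median of all genes to 0.37, 0.49 and 0.54 at the 3 times, S100a10 was called higher at 24 h (0.67, adjusted p = 0.0392) and at 48 h (0.79, adjusted p = 0.00681), and its 36 h difference became 0.03.

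Anxa2 rose from 15.2, 15.2 and 18.7 CPM in the 0 h sections to 254, 190, 297 and 128 in those of 48 h. Its log2 difference was 2.49 ± 0.41 (SE) at 24 h, 3.09 ± 0.42 at 36 h and 3.73 ± 0.40 at 48 h (edgeR adjusted p = 9.61e-05 at 48 h). Anxa1, the other S100a11 partner, went from 4.23, 4.21 and 4.97 CPM at 0 h to 23.1, 31.8, 42.4 and 35.8 at 48 h, a log2 difference of 2.90 ± 0.32 (SE, edgeR adjusted p = 0.000105). At 48 h the sections of both annexins lay above all 0 h sections, as did those of S100a11. The share of all genes doing so at 48 h alone was not counted, so this is a description only.

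S100a1, the calcium-handling member best known from muscle, was lower after injury. It stood at 329, 319 and 311 CPM at 0 h, 125 and 136 at 24 h and 172 and 178 at 36 h, with 48 h sections at 183, 179, 183 and 177. The 0 h and injured sections did not overlap, and the 24 h sections were lowest. No share of all genes lying lower in this way is given, so the separation is a description only. The log2 difference was -1.29 ± 0.10 (SE) at 24 h, -0.87 ± 0.10 at 36 h and -0.82 ± 0.08 at 48 h (edgeR adjusted p = 2.61e-05, 0.00043 and 4.15e-05). With total-count scaling it stayed lower at each time (-0.96, -0.43 and -0.30), under which the median of all genes moved up as given above.

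S100a13 was lower at 24 h and 48 h. Its level was 122, 121 and 108 CPM at 0 h, 58.5 and 67.4 at 24 h, 99.1 and 89.3 at 36 h, and 69.6, 67.4, 73.5 and 70.1 at 48 h. All injured sections lay below the 0 h sections, with those at 36 h nearest to them. As for S100a1, no share of all genes is given beside this separation. The log2 difference was -0.89 ± 0.11 (SE) at 24 h, -0.31 ± 0.11 at 36 h and -0.74 ± 0.09 at 48 h (edgeR adjusted p = 0.000184, 0.0526 and 0.000143). The 36 h difference was called with DESeq2 (adjusted p = 0.0191), without 36 h A (0.0463) and without hepatocyte-low spots (0.0497). With total-count scaling the 36 h difference turned to 0.13 and the 48 h call was lost (-0.21, adjusted p = 0.0805).

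Between successive injured times only S100a1 and S100a13 passed the test. S100a10 did not, at -0.74 ± 0.27 (SE, log2) from 24 h to 36 h and 0.66 ± 0.24 from 36 h to 48 h. Its edgeR adjusted p was 0.0905 and 0.162. From 24 h to 36 h, S100a13 was higher by 0.58 ± 0.12 (SE, log2; edgeR adjusted p = 0.0127) and S100a1 by 0.42 ± 0.10 (adjusted p = 0.024), 2 members higher and 0 lower beside 7.04% and 8.58% of all genes. From 36 h to 48 h, S100a13 was lower, at -0.43 ± 0.10 (adjusted p = 0.049), 0 members higher and 1 lower beside 1.62% and 1.43% of all genes, and that call was kept with DESeq2, with all spots under the tissue and without 36 h B, and lost in each of the other alternatives run. At 36 h against 24 h, S100a13 was not called without 24 h A (0.48, adjusted p = 0.0928), and S100a1 was not called without 24 h A (0.36, 0.142), 24 h B (0.48, 0.0600) or 36 h B (0.43, 0.0524).

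The annexins, the other S100 genes and known S100 partners were read beside the members. Their counts stand beside 23.1%, 16.8% and 23.3% of all genes higher and 18.6%, 12.4% and 20.9% lower at 24 h, 36 h and 48 h. Of 10 annexins tested, 7 were higher at 24 h, 7 at 36 h and 6 at 48 h. The only lower call among them was Anxa6 at 24 h (-0.38). They had a median log2 difference of 0.89 at 48 h, beside 0.01 over all genes. Anxa3 (2.86 ± 0.39, SE) followed Anxa2 and Anxa1 in size at 48 h, and Anxa9 (1.15 ± 0.22) came next. Anxa13 had no row in the files, and Anxa10 was too low to test. Of the 5 other S100 genes tested, 4 were higher at each time, and at 48 h these were S100a9 (3.77 ± 0.68), S100a3 (3.75 ± 1.05), S100a8 (3.52 ± 0.72) and S100g (2.36 ± 0.65), of which S100a8 and S100a9 are also neutrophil markers here. S100a3 was near the floor, with 1 UMI over the 0 h sections and 34 over those at 48 h, and S100g held 32 and 331. The remaining gene, S100a16, stood at -0.12 ± 0.11.

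Among 13 partners tested, 5 rose at each time, while 0, 2 and 1 fell at 24 h, 36 h and 48 h, with a median of 0.51 at 48 h. At 48 h Plat (tissue plasminogen activator) was higher by 5.24 ± 0.67 log2 (SE) and Plaur (the urokinase receptor) by 4.01 ± 0.49. Tlr4, a receptor for extracellular S100 proteins, was higher by 1.56 ± 0.21 and Plgrkt, a plasminogen receptor, by 0.97 ± 0.15. Plau, which encodes urokinase, stood at 0.96 ± 0.54 and was not called (edgeR adjusted p = 0.175). Ahnak, a scaffold bound by the complex of S100a10 and annexin A2, was higher by 0.87 ± 0.15. Fgf1, which S100a13 helps to export, was the partner that fell at 48 h, at -0.77 ± 0.15 (edgeR adjusted p = 0.00188). Myh9, a myosin heavy chain gene, was higher at 24 h (1.26 ± 0.25) and 36 h (1.18 ± 0.25) and not called at 48 h (0.47 ± 0.21). Cacybp was lower at 36 h (-0.83 ± 0.19) and not called at 24 h or 48 h. The same held for Il1a, which encodes interleukin 1 alpha (-0.96 ± 0.31 at 36 h).

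Position within the tissue was read from hepatocyte-low spots, those scoring lower on the hepatocyte markers than all but 1% of 0 h spots. The score used no S100 gene. They numbered 39 and 20 at 24 h, 6 and 11 at 36 h, and 140, 34, 236 and 82 at 48 h, against 15, 33 and 21 at 0 h. They were compared with far spots, at least 3 steps away on the spot grid, in the 6 injured sections with at least 20 hepatocyte-low spots, which left out both 36 h sections. S100a4, S100a6, S100a11 and S100a10 were higher in hepatocyte-low spots and S100a1 was lower, 4 members higher and 1 lower beside 30.8% and 26.4% of all genes.

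S100a4 stood at 43.5 and 88.5 unscaled CPM in hepatocyte-low spots at 24 h, and at 313, 190, 369 and 236 at 48 h. In far spots of the same sections it stood at 8.08, 14.4, 38.9, 41.9, 54.4 and 25.9. Every section had the higher value in its hepatocyte-low spots, with ratios from 4.52 to 9.09. The log2 difference was 2.29 ± 0.12 (SE, edgeR with section as a block and TMM scaling, adjusted p = 2.71e-12).

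S100a6 stood at 200 and 367 unscaled CPM in hepatocyte-low spots at 24 h and at 1557, 1466, 1294 and 715 at 48 h. In far spots it stood at 62.3, 129, 352, 402, 347 and 140. The ratio was above 1 in all 6 sections (2.84 to 5.11), and the log2 difference was 1.48 ± 0.11 (SE, adjusted p = 1.67e-10). At both times far spots were themselves above the far spots of the 0 h sections, where S100a6 made 4.03 to 5.40 unscaled CPM.

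S100a11 was higher by 1.22 ± 0.12 log2 (SE, adjusted p = 1.61e-08) in hepatocyte-low spots, with ratios of 1.95 to 4.40 in the 6 sections. S100a10, which was not called between 0 h and any injured time, was higher there by 0.35 ± 0.10 (adjusted p = 0.0044), from 479 to 931 unscaled CPM in hepatocyte-low spots at 24 h and 48 h against 313 to 461 in far spots. S100a1 was lower, at -0.77 ± 0.10 (adjusted p = 4.9e-07), with ratios of unscaled CPM from 0.731 to 0.942.

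The same contrast was also read at each time. In the 24 h sections S100a4, S100a6 and S100a11 were called higher and S100a1 lower, 3 and 1 members beside 4.64% and 7.99% of all genes. In the 48 h sections 5 members were higher and 1 lower, beside 33.7% and 28.1% of all genes. S100a10 was called at 48 h (0.39 ± 0.08 log2, SE, edgeR adjusted p = 1.87e-05), whereas its 24 h difference did not pass (0.27 ± 0.12, adjusted p = 0.151). S100a13 was likewise called at 48 h (0.22 ± 0.08, adjusted p = 0.0123), with a 24 h difference that did not pass (-0.02 ± 0.19, adjusted p = 0.976). For neither gene was the difference between the times called (adjusted p = 0.736 for S100a10 and 0.567 for S100a13).

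S100a13 was called in some fits and not in others. Its unscaled CPM was higher in hepatocyte-low than in far spots in all 6 sections, with ratios of 1.20 to 1.75, but over the 6 sections with TMM scaling it was not called (0.17 ± 0.09 log2, SE, edgeR adjusted p = 0.12). It was called higher with total-count scaling (0.63, adjusted p = 3.76e-06), with spots thinned to 2000 UMIs (0.33, adjusted p = 0.0216) and without 24 h A (0.21, adjusted p = 0.0292). That scaling moved the median of all genes from 0.04 to 0.52, and S100a1 stayed lower under it, at -0.31.

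The levels of S100a4, S100a6 and S100a11 fell from these spots to those touching them in all 6 sections. Spots touching a hepatocyte-low spot were already lower than it, S100a6 at 338 to 803 unscaled CPM at 48 h against 715 to 1557 in hepatocyte-low spots, but still above far spots by 0.68 ± 0.09 log2 (SE, edgeR adjusted p = 6.08e-05). For S100a4 that difference was 1.03 ± 0.09 (adjusted p = 5.11e-07) and for S100a11 0.67 ± 0.08 (adjusted p = 2.26e-05). At 2 steps S100a6 stood at 156 to 383 unscaled CPM at 48 h, beside 140 to 402 in far spots, and it was lower at 2 steps than in far spots in 24 h B, 48 h B and 48 h C.

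**Figure D3:**
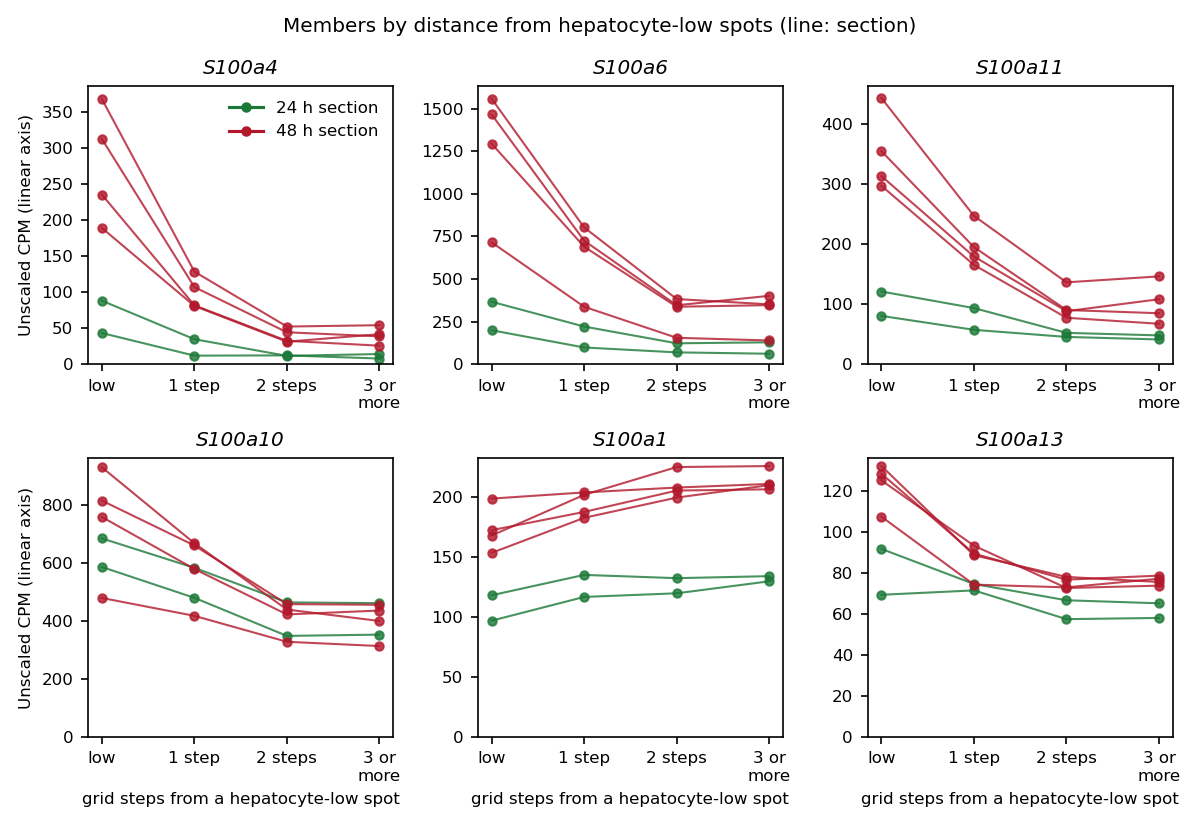
Unscaled CPM of each member in hepatocyte-low spots and in spots 1, 2 and 3 or more grid steps away, with a line for each of the 2 sections at 24 h and 4 at 48 h (linear axes from 0). S100a4, S100a6, S100a11 and S100a10 are highest in hepatocyte-low spots in all 6 sections, and S100a1 is lowest there in all 6.

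The contrast between hepatocyte-low and far spots was not shown to differ between 48 h and 24 h, with 0 members called in edgeR's interaction test beside 2.42% of all genes with a larger difference at 48 h and 4.35% with a smaller one. In the same edgeR test 2 members had an unadjusted p below 0.05, S100a11 (0.60 ± 0.22 log2, SE, adjusted p = 0.101) and S100a6 (0.35 ± 0.16, adjusted p = 0.199), both larger at 48 h. Total-count scaling, with a median over all genes of 0.18, called both (0.72 and 0.47, adjusted p = 0.0221 and 0.0423), and S100a11 was also called without 48 h B (0.68, adjusted p = 0.035) and without 48 h C (0.71, adjusted p = 0.0109).

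Across spots of the injured sections, S100a6, S100a4, S100a11 and S100a10 varied with the markers of mononuclear phagocytes and myofibroblasts, with a positive r in all 8 sections. Pearson's r was computed in each section over spots thinned to 5000 UMIs, and is a description, since spots share a library and neighbours share tissue. For S100a6 the median r over the 8 sections was 0.45 with the myofibroblast score, 0.40 with the mononuclear phagocyte score and 0.30 with the cholangiocyte score. For S100a4 the median was 0.36 with both the myofibroblast and the mononuclear phagocyte score, and 0.10 with the cholangiocyte score. For S100a11 it was 0.32 with the mononuclear phagocyte and 0.29 with the myofibroblast score, and for S100a10 0.23 with each. With the cholangiocyte score the median was 0.17 for S100a11 and 0.19 for S100a10. Correlations with the hepatocyte score were negative for S100a6 (-0.24), S100a4 (-0.25), S100a11 (-0.20) and S100a10 (-0.15). With the neutrophil score the median was 0.24 for S100a6, 0.20 for S100a4, 0.18 for S100a11 and 0.12 for S100a10. The endothelial score (Pecam1, Icam2, Cdh5, Kdr, Eng, Flt4 and Stab2) gave medians of 0.17, 0.14, 0.15 and 0.09 in that order. For each of these members r was also positive in all 8 sections with the cholangiocyte, neutrophil and endothelial scores. A positive r was therefore not particular to phagocyte and myofibroblast markers. The medians of S100a13 were 0.08 with the mononuclear phagocyte score and 0.07 with the myofibroblast score, those of S100a1 were -0.03 and -0.04, and values this weak are not read as a relation.

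**Figure D4:**
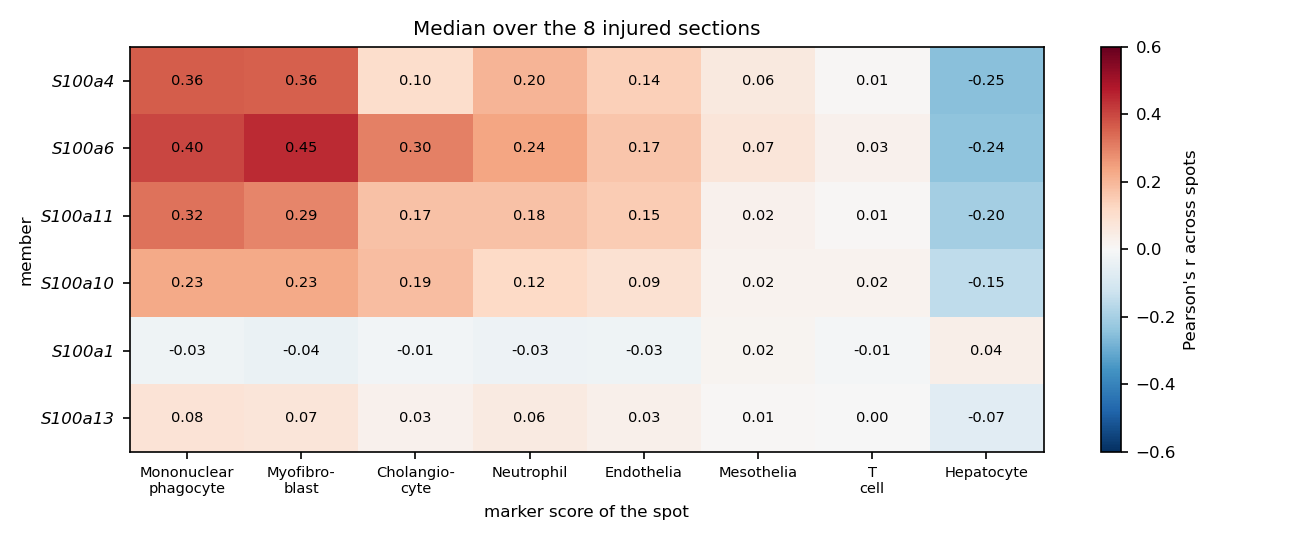
Median over the 8 injured sections of Pearson's r, across spots, between each member (rows) and the score of each marker list (columns). S100a6 reaches 0.45 with the myofibroblast score and 0.40 with the mononuclear phagocyte score, and S100a1 lies between -0.04 and 0.04 in every column.

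The 10% of spots with the highest scores were compared with the remaining spots of each section at 48 h. In the spots richest in mononuclear phagocyte markers, S100a4 stood 4.42 to 6.28 times as high, S100a6 2.61 to 3.78 times and S100a11 2.52 to 3.52 times. S100a10 stood 1.47 to 1.87 times as high there. S100a13 was 1.31 to 1.58 times as high, and S100a1 was 0.78 to 0.91 times as high. In spots richest in myofibroblast markers S100a4 stood 4.53 to 6.59 times as high and S100a6 2.82 to 3.84 times. In spots richest in neutrophil markers S100a4 stood 3.12 to 4.45 times as high and S100a6 2.34 to 2.63 times. In those richest in endothelial markers S100a4 stood 2.09 to 2.60 times as high and S100a6 1.58 to 2.06 times. A spot can hold several cells, so which of them carried the transcripts cannot be told apart.

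The genes most like each member across spots were named by mean r over the 8 injured sections, among 5017 genes of at least 20 CPM. For S100a4 these were Tmsb4x (r = 0.34), Lyz2 (0.33), Ftl1 (0.33), Lgals3 (0.30) and Ctsb (0.29). For S100a6 they were Ftl1 (0.43), Fth1 (0.42), Tmsb4x (0.41), Lyz2 (0.40) and Tmsb10 (0.38), and for S100a11 Ftl1 (0.34), Fth1 (0.30), Tmsb4x (0.30), Lyz2 (0.29) and Rplp1 (0.28). The 3 lists share the ferritin light chain Ftl1, thymosin beta 4 (Tmsb4x) and lysozyme 2 (Lyz2), the last of which is also in the mononuclear phagocyte list. For S100a10 they were Ftl1 (0.31), Fth1 (0.30), Rplp1 (0.26), Rpl41 (0.26) and the keratin Krt8 (0.24). The highest mean r was 0.06 for S100a1 and 0.08 for S100a13, too weak to name a gene by. With Anxa2 the median r across spots was 0.31 for S100a6, 0.24 for S100a11, 0.23 for S100a10 and 0.21 for S100a4, so the value of S100a10 with its partner did not stand out among them.

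Spots poor in markers of other cells were examined separately, to ask how the members stood where those markers were low. A spot counted as marker-poor when its mean score over phagocyte, neutrophil, myofibroblast, cholangiocyte, T cell and mesothelial markers was at or below the 0 h median. Endothelial markers were not part of this score, so marker-poor spots were not chosen to be low in them. The 3 sections at 0 h held 929 to 1300 such spots and the injured sections 62 to 345, with 48 h C left out at 25 spots. Even so the markers were not level, since they summed to 464 to 486 unscaled CPM in the marker-poor spots at 0 h and to 713 to 1053 in those of the injured sections tested.

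In marker-poor spots S100a6, S100a4 and S100a11 were still higher at 48 h than at 0 h, and S100a1 and S100a13 lower. S100a6 stood at 158, 128 and 70.0 unscaled CPM at 48 h (A, B and D), against 4.09, 4.04 and 4.03 at 0 h, a log2 difference of 4.63 ± 0.64 (SE, edgeR adjusted p = 0.00672). S100a4 stood at 19.1, 10.7 and 9.10 against 0.687, 1.01 and 1.42 (3.48 ± 0.40, adjusted p = 0.000489). S100a11 differed by 1.87 ± 0.35 (adjusted p = 0.0118), S100a1 by -0.54 ± 0.11 (0.00912) and S100a13 by -0.65 ± 0.14 (0.012), while S100a10 was not called (-0.13 ± 0.22). That made 3 members higher and 2 lower, beside 5.73% and 5.3% of all genes tested there. At 24 h the counts were the same (15.8% and 15.5% of all genes), and at 36 h 3 members were higher and 1 lower (7.04% and 6.44%). With total-count scaling, which put the median of all genes at 0.27, neither S100a1 nor S100a13 was called at 48 h, and S100a1 was not called at 36 h. Single sections decided several of these calls. At 48 h, S100a13 was lost without 0 h 2, 0 h 3 or 48 h B and S100a1 without 0 h 2 (adjusted p from 0.053 to 0.068). S100a11 was lost at 36 h without any 1 of the 0 h sections (0.0589 to 0.0714). S100a10 was called lower at 36 h without 24 h A, 24 h B or 36 h B (-0.75 to -1.14, adjusted p from 0.0196 to 0.0262). The 24 h count of 5 fell to 3 without 0 h 2, 0 h 3 or 24 h A, to 2 without 24 h B, and lost S100a11 alone without 0 h 4 or 48 h B.

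Transcripts also lay outside the tissue. Barcodes beyond the tissue mask held 10.7% to 24.9% of the UMIs of a section. There S100a6 stood at 4.88 to 13.4 unscaled CPM at 0 h and at 233 to 521 at 48 h, S100a4 at 0.669 to 0.794 and 51.7 to 91.3, and S100a11 at 6.41 to 8.20 and 109 to 180. The level in marker-poor spots was below the level outside the tissue of the same section in 7 of 7 injured sections for each of S100a4, S100a6 and S100a11. The same held in 7 of 7 for S100a10, 5 of 7 for S100a13 and 4 of 7 for S100a1, so it was not particular to the members that rose. At 0 h it held in 3 of 3 sections for S100a1 and S100a6, 2 for S100a10, 1 for S100a13 and 0 for S100a4 and S100a11. The part of RNA that had spread over the array in the marker-poor levels was not tested, so these levels are not read as expression by hepatocytes.

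**Figure D5:**
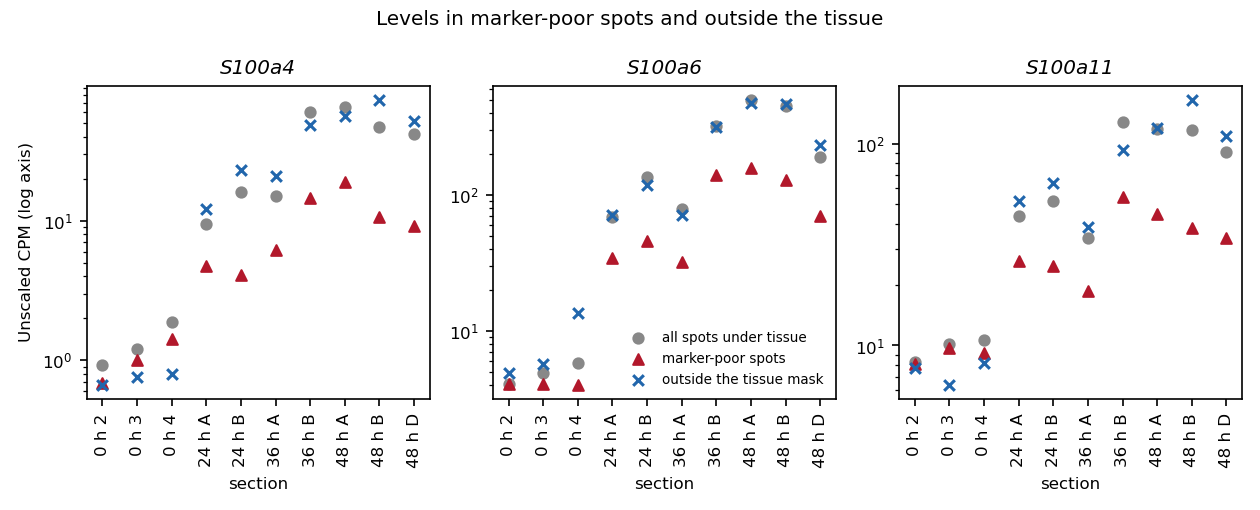
Unscaled CPM (log axis) of S100a4, S100a6 and S100a11 in all spots under the tissue (circles), in marker-poor spots (triangles) and in barcodes outside the tissue mask (crosses), for the 10 sections with at least 50 marker-poor spots. In the 7 injured sections each triangle lies below the cross of its section and above the triangles of the 0 h sections.

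In uninjured liver the members were compared along the lobule, the unit that runs from portal tract to central vein. Spots of the 0 h sections were split into 3 groups of equal size by a central minus portal score from the study's marker lists, which hold no S100 gene, and the outer groups were compared. S100a1, S100a6, S100a10 and S100a11 were lower in the central group, 4 of 6 members beside 13.2% of all genes lower and 12.5% higher. S100a1 stood at 275, 274 and 250 unscaled CPM in the portal group and at 247, 241 and 235 in the central group, lower in 3 of 3 sections, at -0.21 ± 0.03 log2 (SE, edgeR with section as a block, adjusted p = 1.2e-08).

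S100a6 differed most along the lobule, at 4.80, 6.63 and 6.39 unscaled CPM in the portal group and 3.88, 3.94 and 4.44 in the central group (-0.61 ± 0.12, adjusted p = 8.79e-05). These levels rest on 68 to 157 UMIs per group and section. Outside the tissue S100a6 stood at 4.88, 5.72 and 13.4 unscaled CPM. Under the tissue of those sections it stood lower, at 4.03, 4.87 and 5.77. In 0 h spots richest in myofibroblast markers it stood 3.85 to 9.42 times as high as in the remaining spots. The part of spread RNA or of other cells in the S100a6 difference was not tested. S100a11 was lower, at -0.34 ± 0.09 (adjusted p = 0.00324) and lost its call without section 3 of the 0 h group (-0.25, adjusted p = 0.148). S100a10 was lower, at -0.12 ± 0.03 (adjusted p = 0.000563), a call lost with total-count scaling (-0.06, adjusted p = 0.0923). S100a4 (-0.42 ± 0.24) and S100a13 (-0.05 ± 0.03) were not called.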

How the data were processed

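Liver sections were assayed with Visium 3' chemistry. Per the file headers and the study's methods, the authors processed reads with Space Ranger 1.0.0 on mm10, and the deposited values are raw UMI counts for 31053 genes over 4992 barcodes per section. The study's limits were applied to barcodes inside the tissue mask: 800 or more genes, and mitochondrial UMIs up to 20%. UMIs were summed per section, or per section and spot class, and tested in R 4.3.3 with edgeR 4.0.16 (TMM, filterByExpr, robust glmQLFit) over all genes, with all sections of a fit sharing the spread. Alternatives were DESeq2 1.42.0, total-count scaling, other filters and thresholds, and leaving out each section. Spot scores were means of ln(1 + UMIs per 10000) after thinning to 5000 UMIs, and shallower spots were left out of them. Scripts were tested on simulated data. Every member was tested in every comparison, but not every estimate is printed. From each other list up to 4 called genes with the largest change at 48 h are named, with Anxa1 and Anxa2 always named. Anxa6, S100a16, Ahnak, Plau, Fgf1, Myh9, Cacybp and Il1a were named after their values were seen. Members and lists were chosen with earlier results of these data known.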

Additional observations from a re-analysis of the deposited data

Results flagged for a closer look

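Transcripts of 3 members in barcodes outside the tissue mask, which entered no test, lay above the 0 h sections in all 8 injured sections. The share of all genes doing so outside the tissue was not counted. Under the tissue 15.7% of all genes tested did so in CPM scaled by TMM, a different measure from the unscaled CPM used here. The lowest injured section stood at 12.2 unscaled CPM (counts for each 1000000 UMIs) for S100a4, 71.3 for S100a6 and 38.4 for S100a11. The highest 0 h section stood at 0.794, 13.4 and 8.20. The levels under the tissue moved the same way, and the part of RNA spread from the tissue was not tested. In the 48 h group, 14 checks for a section far from the others (the level of each member, of Anxa1 and of Anxa2, and each member's ratio of hepatocyte-low to far spots) marked 0.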

How the results depend on the processing

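Depth was 31292663 to 67045372 UMIs per section. The 24 h and 36 h groups hold 2 sections each, and more sections of the same livers would not separate mouse from time. Counts of members called stayed within 1.5 times the reported count at 24 h, 36 h and 48 h against 0 h, in hepatocyte-low spots and along the lobule, in every alternative run. From 36 h to 48 h the count of 1 became 0 with total-count scaling, without a filter on low counts, with only the groups compared and without hepatocyte-low spots, and ran from 0 to 3 with 1 section left out. From 24 h to 36 h the count of 2 became 0 with only the groups compared and ran from 0 to 4 with 1 section left out. The labels do not say whether replicate letters pair the sections. Across genes, departures from the group mean had r = 0.29 between 24 h A and 36 h A. They had r = 0.07 between 36 h A and 48 h A and -0.24 between 36 h B and 48 h B. Values from so few sections cannot settle the pairing. With a replicate block both counts became 0. The interaction count of 0 became 2 with total-count scaling and ran from 0 to 1 with 1 section left out. In marker-poor spots the 48 h count of 5 became 3 with total-count scaling and ran from 3 to 5, and the 24 h count ran from 2 to 5. The marker-poor alternatives at 24 h and 36 h, and the interaction with 1 section left out, were chosen after seeing the data.

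Total-count scaling turned the sign of S100a10 (0.032) and S100a13 (0.13) at 36 h, of S100a1 in the interaction (0.018), of S100a13 along the lobule (0.0082), and in marker-poor spots of S100a10 at 48 h (0.12) and S100a13 at 36 h (0.049). In spots touching a hepatocyte-low spot S100a13 stood at -0.024. With 1 section left out, signs turned for S100a6 (-0.48 to 1.57) and S100a11 (-0.59 to 1.34) from 24 h to 36 h, for S100a4 (-0.017 to 2.03) and S100a11 (-0.095 to 1.88) from 36 h to 48 h, for S100a10 in marker-poor spots at 24 h (-0.51 to 0.40), and in the interaction for S100a1 (-0.24 to 0.0090) and S100a10 (-0.0095 to 0.20). Beyond the scaling itself, the cause was not tested.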
